A study of Mus musculus with 11 samples.

Results

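The genes described here are 10 feedback genes and secreted antagonists of the Wnt pathway, measured by RNA sequencing in sorted mouse bone marrow cells. They were chosen by name: Axin2, Nkd1, Nkd2, Notum, Wif1, Sfrp1, Sfrp2, Frzb, Dkk2 and Dkk3. These are 10 of 16576 gene identifiers in the 3 deposited tables, and all 10 were listed in each table and passed its filter on low counts. The study sorted marrow cells carrying the surface receptor PDGFRa and asked how adult and perinatal cells, Sca1 fractions and loss of Igf1r (the receptor for insulin-like growth factors) differ. Of its 11 samples, 3 were wild-type adult cells gated as PDGFRa+CD51+. A further 3 were wild-type perinatal cells gated as PDGFRa+Sca1+, whose titles give them as Cre-negative, and 2 were wild-type perinatal cells gated as PDGFRa+Sca1-. The last 3 were PDGFRa+Sca1+ cells with Igf1r knocked out, whose titles give them as Cre-positive. Thus Cre ran with the deletion, and adult age ran with another gate and with other surface markers. The sources used here name neither the promoter driving Cre nor the strain, the ages in days or any pooling of animals. The labels do not say that each replicate is its own animal, so the p-values cover the spread of these samples only, and part of it may be technical.

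Wnt proteins are secreted ligands that bind Frizzled receptors together with the co-receptors Lrp5 and Lrp6. Binding stabilises beta-catenin, which enters the nucleus and switches on genes with TCF and LEF factors. Some of those target genes feed back: Axin2 is a scaffold of the complex that degrades beta-catenin, Nkd1 and Nkd2 bind Dishevelled, and Notum is a secreted enzyme that removes the lipid Wnt needs for activity. Other antagonists act outside the cell: Wif1, Sfrp1, Sfrp2 and Frzb (also called Sfrp3) bind Wnt proteins, while Dickkopf proteins act at the co-receptors. Dkk2 can inhibit or stimulate signalling depending on its partners, and Dkk3 is the divergent member of that family. In bone, Wnt signalling favours osteoblast formation and Frzb was first known from cartilage.

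Promoter sequence was read for the members as 250 bases before to 50 bases after the annotated start, from RefSeq on GRCm38.p6, and 7 of the 10 genes matched an entry. Of these, 3 are printed 5′ to 3′ on the strand of the gene, because they belong to called members that went in opposite directions between the perinatal groups: Wif1 and Nkd2 one way, Dkk2 the other. They are Wif1 (chr10:121033754-121034053, plus strand), Nkd2 (chr13:73847582-73847881, minus strand) and Dkk2 (chr3:132085042-132085341, plus strand). Capitals mark a match to the TCF/LEF core CTTTGA or to the related letters CTTTGT, on either strand.
Wif1: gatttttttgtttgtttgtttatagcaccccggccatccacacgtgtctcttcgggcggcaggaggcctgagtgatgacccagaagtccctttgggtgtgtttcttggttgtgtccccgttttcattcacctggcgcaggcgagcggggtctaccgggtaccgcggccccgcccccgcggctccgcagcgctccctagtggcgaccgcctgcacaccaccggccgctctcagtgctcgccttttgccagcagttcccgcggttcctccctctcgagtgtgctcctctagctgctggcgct
Nkd2: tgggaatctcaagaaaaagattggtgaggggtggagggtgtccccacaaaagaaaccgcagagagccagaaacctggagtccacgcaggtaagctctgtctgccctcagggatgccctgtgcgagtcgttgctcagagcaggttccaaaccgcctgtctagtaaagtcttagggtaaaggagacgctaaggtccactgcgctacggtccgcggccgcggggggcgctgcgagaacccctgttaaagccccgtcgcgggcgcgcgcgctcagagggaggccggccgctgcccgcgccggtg
Dkk2: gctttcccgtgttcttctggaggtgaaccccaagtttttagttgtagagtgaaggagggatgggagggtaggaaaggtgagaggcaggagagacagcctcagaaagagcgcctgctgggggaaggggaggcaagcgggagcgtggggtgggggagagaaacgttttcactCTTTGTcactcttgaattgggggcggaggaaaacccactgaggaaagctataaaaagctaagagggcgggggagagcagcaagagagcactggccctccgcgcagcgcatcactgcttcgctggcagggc
Among the 7 promoters, Frzb held the only TCF/LEF core, as TCAAAG on the gene's strand, 95 bases before the RefSeq start. That start lies 229 bases inside the Frzb gene as GENCODE M21 annotates it, so by GENCODE the match is within the gene. RefSeq starts also lie inside the GENCODE gene for Nkd1, by 6279 bases, and for Wif1, by 44 bases, while both annotations share the start of the other 4 genes. The only CTTTGT was in Dkk2, 80 bases before the start. CTTTGA stood in 16.0% and CTTTGT in 18.7% of 32851 mouse promoters of the same length, counting both strands. The RUNX core TGTGGT was in none of the 7 and in 16.8% of all promoters. CpG pairs numbered 25 in Wif1, 26 in Nkd2, 11 in Dkk2 and 20 in Frzb, against a median of 7 over all promoters. Nkd1, with 6, was the member nearest to that median.

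Library totals ran from 13412316 to 23782217 counts, so that 3 counts, the upper limit that a count of 0 allows, were worth 0.126 to 0.224 CPM (the count scaled to a common library total). That limit and every CPM carry counting error, and the reads are not known to be independent molecules. Several facts bear on the labels. Ly6a, which encodes Sca1, reached 666 and 659 CPM where the label is Sca1-negative but only 13.8 and 10.03 CPM where it is Sca1-positive in the same table, against the labels. In the knockout table, Ly6a was 425 CPM in control 1, again 13.8 and 10.04 CPM in controls 2 and 3, and 682 to 930.3 CPM in the knockouts, so control 1 stood apart from the other controls. Igf1r stood at 29.5, 31.7 and 30.7 CPM in the controls and at 8.20, 4.22 and 3.24 CPM in the knockouts. It was lower in every knockout than in every control, as were 12.6% of all genes tested. Pdgfra, the sorting marker, had a mean of 14.3 CPM over adult libraries and of 264 CPM over perinatal ones. The series names all samples as marrow mesenchymal cells, but macrophage and monocyte markers stood at high levels in the adult libraries, as given with the age comparison. Perinatal libraries 2 and 3 labelled Sca1-positive served in all 3 tables, so the 3 comparisons share controls, while the library given as replicate 1 differed between the age and knockout tables. Each table was therefore analysed by itself, and for the age and knockout comparisons values are also given with and without library 1. In such bulk samples, fewer cells of a type and less RNA per cell cannot be told apart.

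The age comparison asked how adult PDGFRa+CD51+ cells differ from perinatal PDGFRa+Sca1+ cells. In the adult libraries 8 of the 10 members fell and none rose, at an adjusted p under 0.05, with the same counts by DESeq2 and at an unadjusted p under 0.05. Over all 13757 genes tested, 77.1% were called, 39.7% lower and 37.4% higher. DESeq2 called 69.5% of its genes, and 78.7% had an unadjusted p under 0.05, so the members' share called in either direction, 8 of 10, was near the background under each rule. The members' median log2 fold change, adult minus perinatal, was -3.44, beside -0.06 over all genes. On CPM, 7 members lay lower in every adult library than in every perinatal one, as did 35.7% of all genes. None lay higher in every adult library, as 45.3% of all genes did, and the groups overlapped for Nkd2, Sfrp1 and Dkk3.

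**Figure D1:**
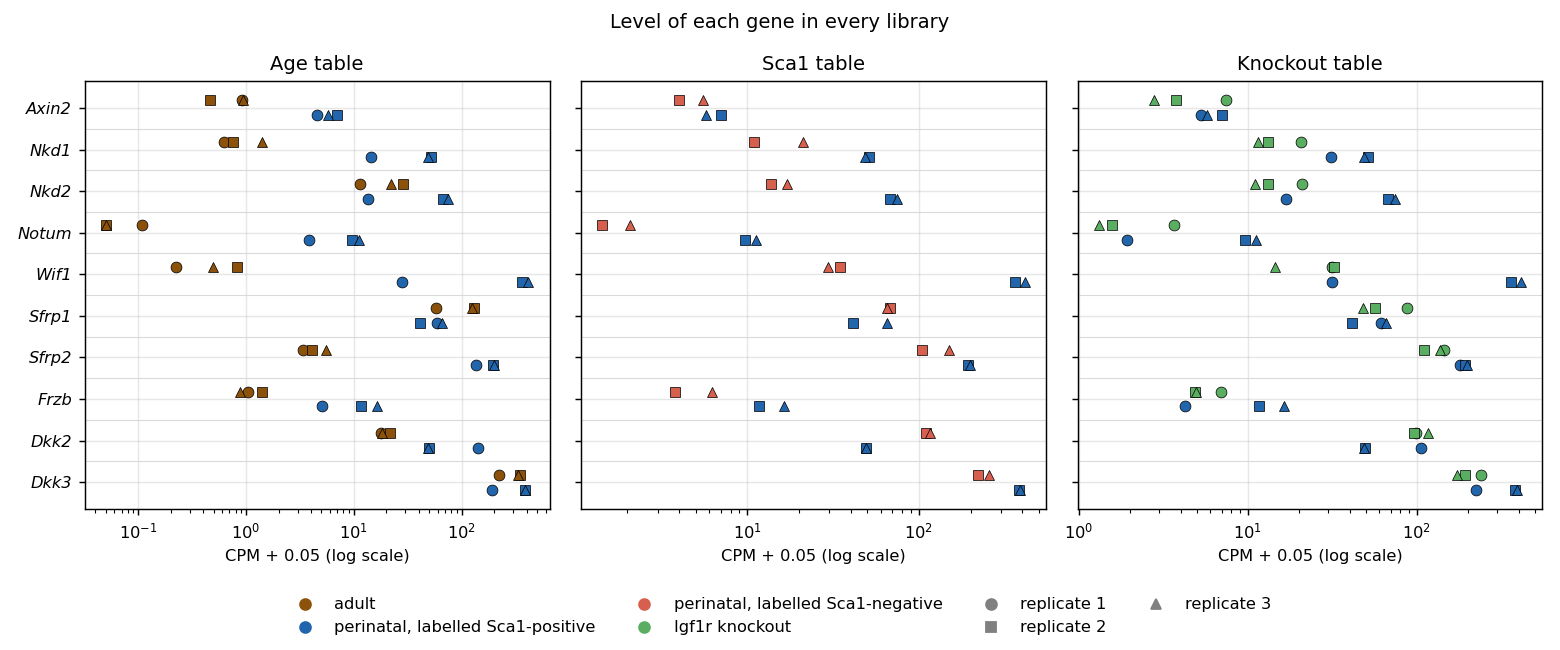
Level of each of the 10 members in every library, as CPM plus 0.05 on a log axis, with 1 panel per deposited table and 1 point per library, coloured by group and shaped by replicate number. Wif1 runs from 0.174 to 0.766 CPM in the adult libraries to 362 and 415 CPM in perinatal libraries 2 and 3, while Dkk3 stays between 173 and 389 CPM in all libraries.

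All 4 feedback genes were lower in adult cells. Axin2 (chr11:108920349-108950783, GRCm38 with GENCODE M21 as for all genes here) had 0.868, 0.412 and 0.895 CPM in the adult libraries and 4.45, 6.98 and 5.67 CPM in the perinatal ones. It fell by 3.24 on the log2 scale (SE 0.371, adjusted p = 0.000125). Nkd1 (chr8:88521354-88594884) had 0.579, 0.707 and 1.34 CPM against 14.2, 51.4 and 48.8 CPM. Its groups were far apart, although perinatal library 1 was lower than the other two, and it fell by 5.74 (SE 0.616, adjusted p = 8.77e-05). Nkd2 (chr13:73818534-73847631), a close relative of Nkd1, had 11.4, 28.4 and 21.8 CPM in adult cells and 13.4, 67.6 and 74.6 CPM in perinatal cells. Its groups overlapped, because perinatal library 1 lay among the adult libraries. It fell by 1.62 (SE 0.61, adjusted p = 0.0412), which passed the threshold. The call was lost when any 1 adult library was left out (adjusted p = 0.123, 0.0716 and 0.0969 without adult 1, 2 and 3), and also without perinatal 2 (0.111) or perinatal 3 (0.121) or with library totals in place of scaling factors (0.0688). Without perinatal 1 it was -2.06 (adjusted p = 0.000372). Notum (chr11:120653788-120661175) had a single count in adult library 1 and none in adult libraries 2 and 3, against 3.78, 9.58 and 11.1 CPM in perinatal cells. Summed over libraries this was 1 count against 383, a perinatal level 392-fold higher per count sequenced, with an exact 95% interval from 69.9 to 15510 for counting error only.

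Among the Wnt-binding antagonists, 3 of 4 fell. Wif1 (chr10:121033960-121100650) stood at 0.174, 0.766 and 0.447 CPM in adult cells and at 27.7, 362 and 415 CPM in perinatal cells. The adult libraries were all low, and perinatal library 1 lay far below the other perinatal libraries. The group means were 0.462 ± 0.296 and 268 ± 210 CPM (SD, n = 3 each), and the log2 fold change was -9.43 (SE 1.249, adjusted p = 0.000268). The adult values of Wif1 rest on 3, 13 and 6 counts, so its fold size is uncertain. Sfrp2 (chr3:83766321-83774316) had 3.30, 4.06 and 5.44 CPM against 137, 194 and 198 CPM. Its perinatal libraries were closer to each other than those of Wif1, and it fell by 5.65 (SE 0.265, adjusted p = 2.02e-06), the smallest adjusted p among the members in this comparison. Frzb (chr2:80411970-80447625) had 0.984, 1.35 and 0.820 CPM against 5.06, 11.6 and 16.4 CPM, and fell by 3.64 (SE 0.48, adjusted p = 0.000262). Sfrp1 (chr8:23411502-23449632) differed in direction. Its levels were 58.2, 129.5 and 123 CPM in adult cells and 59.4, 41.3 and 65.2 CPM in perinatal cells, with adult library 1 among the perinatal ones. The log2 fold change of 0.63 (SE 0.315) was not called (adjusted p = 0.103). Without adult 1 it was 0.95 and called (adjusted p = 0.00826), and likewise with library totals only (0.91, adjusted p = 0.0277).

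The Dickkopf genes differed from each other in this comparison. Dkk2 (chr3:132085292-132180304) had 17.8, 21.4 and 18.3 CPM in adult cells and 141, 49.3 and 48.9 CPM in perinatal cells. It was highest in perinatal library 1, the library where Wif1, Nkd1, Nkd2 and Notum were lowest within the perinatal group. It fell by 2.32 (SE 0.426, adjusted p = 0.0015), by 1.61 without perinatal library 1 (adjusted p = 5.34e-06) and by 3.13 with that library as the only perinatal sample (adjusted p = 1.66e-05). Dkk3 (chr7:112116017-112159057) had 219, 349 and 336 CPM against 192, 382 and 389 CPM. The groups overlapped, and the log2 fold change of -0.37 (SE 0.301) was not called (adjusted p = 0.294), although without perinatal 1 it was -0.61 and called (adjusted p = 0.0156).

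Cell type markers moved with the age comparison, and their part in the members' values was not tested. Of 12 macrophage and monocyte markers, all 12 were above 0 in every adult library, with a sum of 25475 to 28794 CPM, against 24.9 to 31.6 CPM in the perinatal libraries. All 12 were called higher in adult cells. The 12 cartilage markers summed to 54.1 to 90.1 CPM in adult cells, with Cnmd, Col9a1, Col9a2, Hapln1 and Snorc at 0 in all 3 libraries. In perinatal libraries 1, 2 and 3 they summed to 852, 6916 and 8105 CPM, all 12 above 0. The 12 osteoblast and osteocyte markers summed to 3255 to 3899 CPM in adult cells and to 28714, 49902 and 50802 CPM in perinatal cells. Col1a1 alone stood at 1450.6 to 2490.5 CPM in adult cells and at 28306 to 44748 CPM, most of the sums, in perinatal cells. Without perinatal library 1, 9 members were called, as were 81.4% of all genes. The log2 fold changes were then -3.38 for Axin2, -6.13 for Nkd1, -9.95 for Wif1, -5.79 for Sfrp2 and -3.96 for Frzb. With perinatal library 1 as the only perinatal sample, 7 members were called, as were 74.4% of all genes. The log2 fold changes were then 0.36 for Nkd2 (adjusted p = 0.516), 0.40 for Dkk3 (adjusted p = 0.233), -2.87 for Axin2, -4.30 for Nkd1, -6.13 for Wif1, -5.27 for Sfrp2 and -2.50 for Frzb. The lone perinatal library was there assumed to vary like the adult ones.

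Comparing levels between genes needs a value per length, for which the authors' TPM was used, a transcript abundance scaled by length and library. In each adult library Dkk3 was the most abundant member, at 107, 159 and 167 TPM, or 71.6%, 69.0% and 70.1% of the members' summed TPM. Sfrp1 came next in all 3 adult libraries, at 21.4, 44.1 and 46.2 TPM. In perinatal library 1 the order opened with Sfrp2 at 105 TPM (38.8%), then Dkk3 and Dkk2. In perinatal libraries 2 and 3 it opened with Wif1, at 233 and 272 TPM (36.6% and 38.5%), followed by Sfrp2 at 159 and 167 TPM and Dkk3 at 156 and 162 TPM. Sfrp2 and Dkk3 lay closer to each other than the spread between libraries there.

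**Figure D2:**
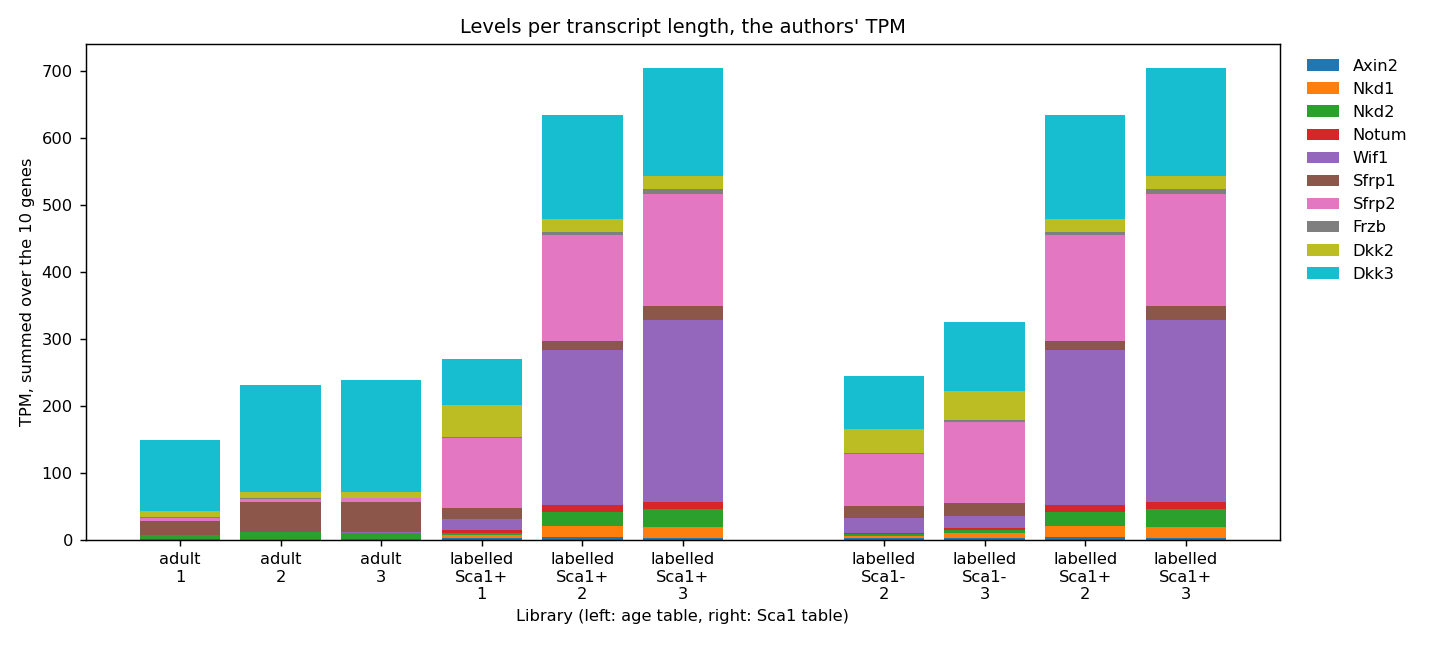
The authors' TPM of the 10 members, stacked in 1 bar per library of the age table (left) and the Sca1 table (right), with a colour for each gene. Dkk3 takes most of the bar in the 3 adult libraries, and Wif1 is the largest segment in perinatal libraries 2 and 3 at 233 and 272 TPM.

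The second comparison set perinatal cells labelled Sca1-negative against those labelled Sca1-positive, with 2 libraries each. Read by the measured Ly6a, it sets Ly6a-high against Ly6a-low libraries, so the label names are kept only as names. Of the 10 members, 5 were called: Wif1, Notum, Nkd2 and Nkd1 were lower and Dkk2 was higher in the libraries labelled Sca1-negative. Over all 13529 genes tested, 4.41% were called, 2.79% lower and 1.63% higher. The members' median log2 fold change was -1.06, beside 0.01 over all genes. On CPM, 8 members lay lower in both libraries labelled Sca1-negative, as did 27.6% of all genes. Dkk2 lay higher in both, as did 22.2% of all genes, and Sfrp1 overlapped.

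**Figure D3:**
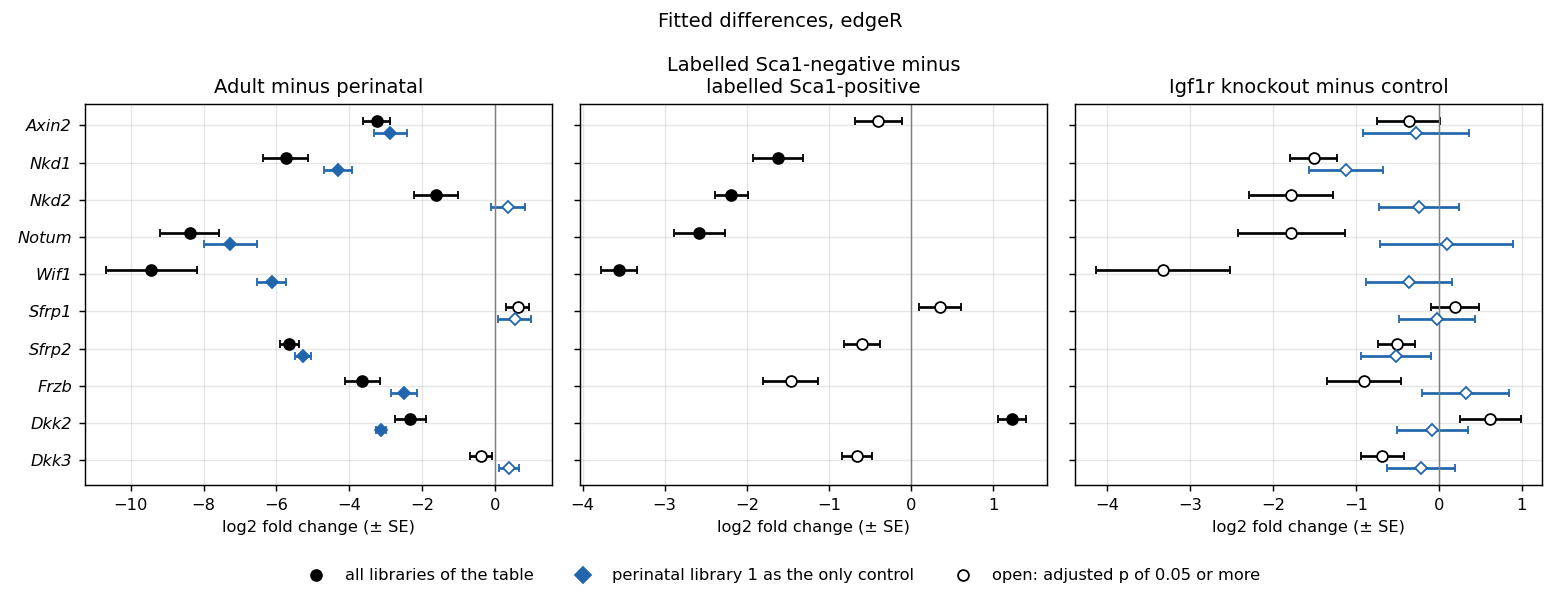
Log2 fold change of each member in the 3 comparisons, with bars of ± 1 SE: black circles are fits on all libraries of a table, blue diamonds use perinatal library 1 as the only control, and open symbols have an adjusted p of 0.05 or more. With all libraries, 8 members lie below 0 as filled circles in the age panel, 4 lie below and Dkk2 above 0 in the Sca1 panel, and all 10 are open in the knockout panel.

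The feedback genes again lay on one side. Nkd2 had 13.6 and 16.9 CPM under the Sca1-negative label and 67.7 and 74.7 CPM under the Sca1-positive label. The pairs were well apart, and Nkd2 was lower by a log2 fold change of -2.19 (SE 0.199, adjusted p = 0.00438). Nkd1 had 10.95 and 21.1 CPM against 51.4 and 48.8 CPM, a log2 fold change of -1.62 (SE 0.303, adjusted p = 0.0377). Notum had 1.38 and 2.02 CPM against 9.58 and 11.1 CPM. Both low values were above the limit that a count of 0 allows, and the log2 fold change was -2.58 (SE 0.306, adjusted p = 0.00824). Axin2, the most general Wnt target of the 4, had 3.93 and 5.49 CPM against 6.99 and 5.67 CPM. Its libraries nearly met, and the log2 fold change of -0.40 (SE 0.285) was not called (adjusted p = 0.522).

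Wif1 showed the lowest log2 fold change of the members here. It stood at 34.8 and 29.6 CPM under the Sca1-negative label and at 362 and 415 CPM under the Sca1-positive label, or 32.2 ± 3.67 against 388 ± 37.4 CPM (SD, n = 2 each). The log2 fold change was -3.56 (SE 0.221, adjusted p = 0.00169). The other Wnt-binding antagonists were not called. Sfrp2 had 104 and 150.3 CPM against 194 and 198 CPM, a log2 fold change of -0.60 (SE 0.217, adjusted p = 0.207). Without labelled-negative library 3, which leaves 1 library in that group, it was -0.85. Frzb had 3.74 and 6.22 CPM against 11.6 and 16.4 CPM, a log2 fold change of -1.47 (SE 0.33, adjusted p = 0.0648). It was called by DESeq2 (adjusted p = 0.00499), as were 7.06% of all genes by that test. In the authors' deposited table its adjusted p was 0.00714. When 1 library was left out, which leaves 1 in a group, its log2 fold change ran from -1.835 to -1.16. Sfrp1 had 67.9 and 64.9 CPM against 41.3 and 65.2 CPM, with a log2 fold change of 0.35 (SE 0.258, adjusted p = 0.536).

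Dkk2 went the other way from the feedback genes. It had 109.7 and 115.5 CPM under the Sca1-negative label and 49.3 and 48.9 CPM under the Sca1-positive label, and both pairs were tight. It was higher by 1.23 on the log2 scale (SE 0.172, adjusted p = 0.0148). The log2 value hardly moved when 1 library was left out, but the call was lost without labelled-positive library 2 (adjusted p = 0.143) or 3 (0.105). Dkk3 had 220.3 and 258 CPM against 382 and 389 CPM, a log2 fold change of -0.66 (SE 0.183) that was not called (adjusted p = 0.112). It was called by DESeq2 (adjusted p = 0.0473), as were 7.06% of all genes by that test. When 1 library was left out, the log2 fold change of Dkk3 ran from -0.743 to -0.575. In the authors' deposited table its adjusted p was 0.0426. By TPM, Dkk3 led in labelled-negative library 2 and Sfrp2 in labelled-negative library 3, while Wif1 led in both libraries labelled Sca1-positive.

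Markers of skeletal cells moved with this comparison too, and their part in the members' values was not tested. All 12 cartilage markers were above 0 in all 4 libraries and all 12 were called lower in those labelled Sca1-negative, where they summed to 698 and 821 CPM against 6918 and 8107 CPM. Of the osteoblast and osteocyte markers, 10 of 12 were called lower, and Mepe was at 0 in both libraries labelled Sca1-negative. That list summed to 24111 and 28298 CPM against 49917 and 50817 CPM. Most of these sums was Col1a1, at 23909 to 28142 CPM against 43305 to 44762 CPM. Col1a1 itself was not called (log2 fold change -0.73, adjusted p = 0.116), so the sums do not represent the 10 called genes. Of 10 fibroblast progenitor markers, a list that holds Ly6a, 9 were called higher, with sums of 7380 and 6551 CPM against 1383 and 1657 CPM. Of the 12 macrophage and monocyte markers, only 8 were listed for this comparison and 7 passed the edgeR filter. None of them was called by edgeR or DESeq2 or had an unadjusted p under 0.05. The 8 summed to between 23.7 and 36.5 CPM in all 4 libraries. The plot of Wif1 and Dkk2 against the cartilage sum places each library on this axis.

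**Figure D4:**
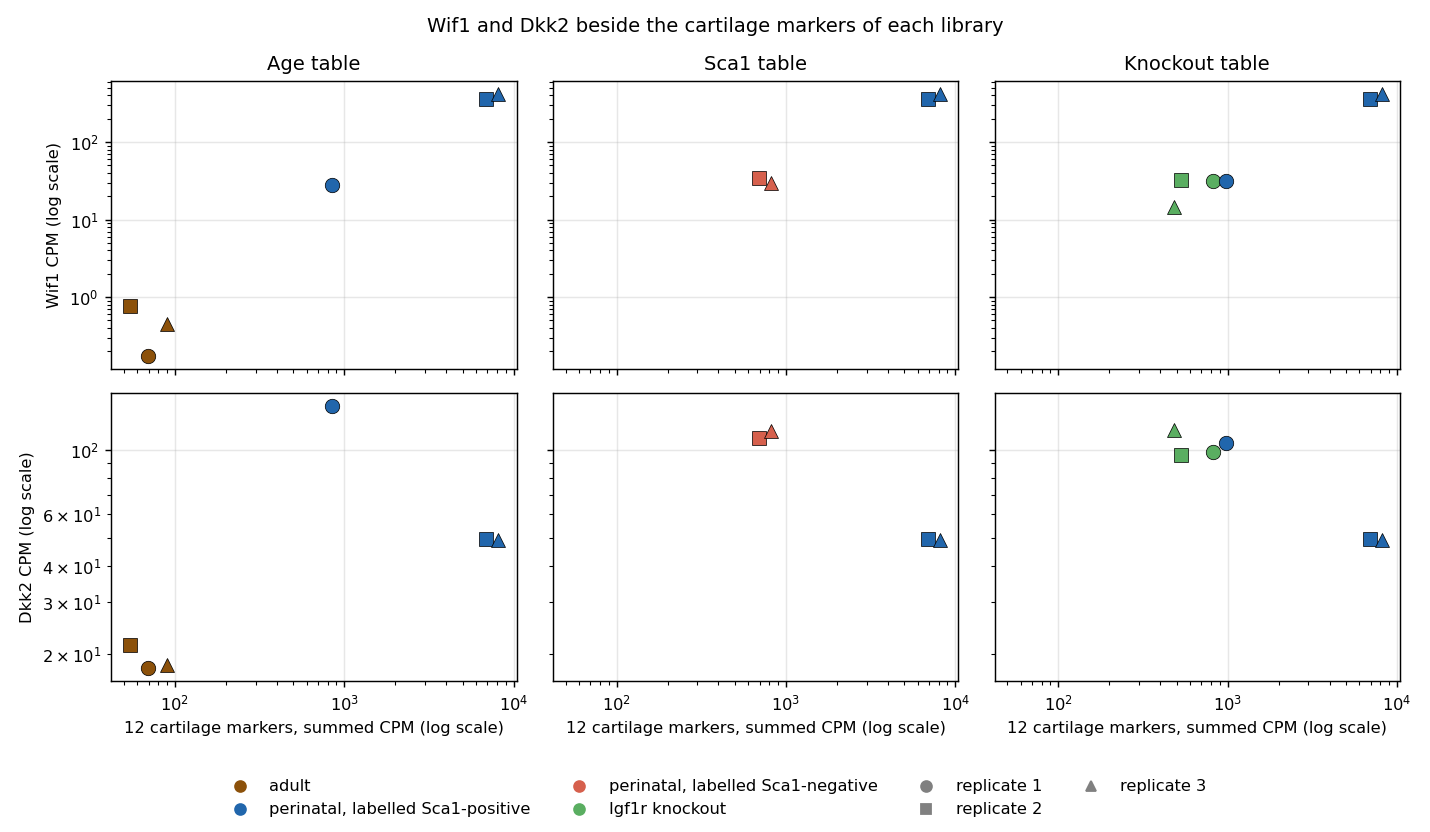
CPM of Wif1 (top row) and Dkk2 (bottom row) in each library against the summed CPM of 12 cartilage markers, all on log axes, with 1 column per table, colours for groups and shapes for replicate numbers. Perinatal libraries 2 and 3 stand at the right of each panel with Wif1 at 362 and 415 CPM and Dkk2 at 49.3 and 48.9 CPM, while the other perinatal and the knockout libraries lie between 482 and 976 CPM of cartilage markers and the adult libraries between 54.1 and 90.1 CPM.

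The knockout comparison set PDGFRa+Sca1+ cells with Igf1r knocked out against the perinatal Cre-negative cells labelled with the same gate. None of the 10 members was called by edgeR, 6 had an unadjusted p under 0.05, and DESeq2 called 3 (Wif1, Nkd1 and Nkd2). Over all 13590 genes tested, 0.0368% were called by edgeR, 5 genes lower and none higher. An unadjusted p under 0.05 was found for 21.8% of them, and DESeq2 called 6.97% of its genes. Igf1r itself was not called by edgeR either, at a log2 fold change of -2.545 (SE 0.342, adjusted p = 0.0816). The members' median log2 fold change, knockout minus control, was -0.79, beside -0.02 over all genes. On CPM, Nkd1 and Sfrp2 lay lower in every knockout than in every control, as did 12.6% of all genes, and the other 8 members overlapped.

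Nkd1 had 20.6, 13.1 and 11.4 CPM in the knockouts and 30.9, 51.5 and 48.8 CPM in the controls. Control 1 was the lowest control but still above every knockout, and the log2 fold change was -1.51 (SE 0.283, adjusted p = 0.176). Nkd2 had 20.8, 13.1 and 10.9 CPM against 16.7, 67.7 and 74.7 CPM. Control 1 lay among the knockouts, and the log2 fold change was -1.78 (SE 0.502, adjusted p = 0.177). Notum had 3.61, 1.53 and 1.26 CPM against 1.87, 9.59 and 11.1 CPM, with control 1 again among the knockouts, and a log2 fold change of -1.78 (SE 0.65, adjusted p = 0.192). Axin2 had 7.39, 3.69 and 2.73 CPM against 5.23, 6.99 and 5.68 CPM. Knockout 1 was the highest of all 6 libraries, and the log2 fold change was -0.36 (SE 0.381, adjusted p = 0.551).

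Wif1 had 31.4, 32.1 and 14.3 CPM in the knockouts and 31.4, 362 and 415 CPM in the controls. Controls 2 and 3 were high, while control 1 equalled knockout 1 to 3 digits. The log2 fold change was -3.33 (SE 0.811, adjusted p = 0.176). Sfrp2 had 145, 110.6 and 137 CPM against 179, 194 and 198 CPM, with no overlap, and a log2 fold change of -0.51 (SE 0.219, adjusted p = 0.226). Frzb had 6.90, 4.80 and 4.88 CPM against 4.19, 11.6 and 16.4 CPM, and Sfrp1 had 87.3, 56.3 and 47.7 CPM against 61.01, 41.3 and 65.3 CPM. Both overlapped, with log2 fold changes of -0.91 (adjusted p = 0.26) and 0.20 (adjusted p = 0.677). Dkk2 had 98.2, 96.0 and 116.5 CPM against 105.1, 49.3 and 48.9 CPM, so control 1 lay with the knockouts, and the log2 fold change was 0.62 (SE 0.371, adjusted p = 0.32). Dkk3 had 239, 193 and 173 CPM against 222, 382 and 389 CPM, a log2 fold change of -0.68 (SE 0.26, adjusted p = 0.2).

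Which control was used set the size of these values. Without control 1, Wif1 (-3.85, adjusted p = 0.00905), Nkd2 (-2.19, adjusted p = 0.0208) and Nkd1 (-1.67, adjusted p = 0.0337) were called, as were 2.19% of all genes. With control 1 as the only control, no member was called, nor was any other gene tested (0%), and the log2 fold changes were -0.36 for Wif1 (adjusted p = 0.759), -0.24 for Nkd2, 0.09 for Notum, 0.33 for Frzb and -0.08 for Dkk2. Nkd1 kept -1.12 (adjusted p = 0.586) and Sfrp2 -0.52 there, both below 0 as with all controls. Nkd1 and Nkd2 were also called without knockout 1 (adjusted p = 0.0228 and 0.0465), where 21.5% of all genes were called, near the share of the members. In the authors' deposited table the adjusted p was 6.07e-05 for Wif1, 0.000716 for Nkd1, 0.0108 for Nkd2 and 0.0577 for Notum.

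Marker sums divided the controls in the same way, and their part in the members' values was not tested. The 12 cartilage markers summed to 976 CPM in control 1 and to 6920 and 8112 CPM in controls 2 and 3, against 825, 528 and 482 CPM in the knockouts. All 12 were above 0 except Snorc in knockout 2. None was called by edgeR, while all 12 had an unadjusted p under 0.05 and DESeq2 called 11 lower. The osteoblast and osteocyte list summed to 34697, 49935 and 50846 CPM in the controls and to 26409 to 29889 CPM in the knockouts. Most of these sums was Col1a1, at 34535 to 44787 CPM in the controls and 26047 to 29616 CPM in the knockouts. Mepe was at 0 in control 1 and knockouts 1 and 2. The fibroblast progenitor list summed to 4761, 1383 and 1658 CPM in the controls and to 6260 to 7917 CPM in the knockouts. Erythroid markers differed from these: their sum was 1241 to 1663 CPM in all 3 controls, control 1 included, and 157 to 246 CPM in the knockouts, with 4 of 6 called lower.

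The rest of the pathway was read from 6 lists of 83 genes in all, without the members. In the age comparison 66 were tested, of which 38 were lower and 19 higher in adult cells, with a median log2 fold change of -1.05. Over all genes tested there, 77.1% were called, 39.7% lower and 37.4% higher, so the counts below stand beside a high background. Of 10 tested Wnt ligands, 7 were lower and 1 higher, Wnt10b (1.14), named after its value was seen. Wnt5b had a log2 fold change of -4.92, Wnt6 of -4.96 and Wnt11 of -3.26. Wnt6 stood at 0.059 to 0.116 CPM in adult cells, below the worth of 3 counts, so its fold size is uncertain. Among 15 receptors and co-receptors, 10 were lower, such as Ror1 (-5.04) and Fzd6 (-4.25), and 5 were higher, such as the co-receptor Lrp6 (1.58). R-spondins strengthen Wnt signals through Lgr receptors, and 5 of 7 genes of that list were lower, among them Lgr5 (-4.03) and Lgr4 (-2.22). Rspo2, also named after its value was seen, was higher (3.15). All 4 tested genes of the list of other secreted antagonists were lower. Sfrp4, a further Frizzled-related protein, had a log2 fold change of -3.90 and Dkk1 of -4.39, and Sostdc1 was listed at 0 in every adult library. Dkk1 stood at 0.058 to 0.298 CPM in adult cells, near the worth of 3 counts, so its fold size is uncertain. The core of 20 cytoplasmic and nuclear genes was divided, with 9 higher and 6 lower: Apc, part of the complex that degrades beta-catenin, had 2.01, and the nuclear factors Tcf7l2 and Tcf7l1 had -4.99 and -4.00. Of 14 other Wnt target genes, 10 were lower, such as Myc (-3.72), and 3 higher, such as Ccnd1 (2.73), both also regulated by many other signals.

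**Figure D5:**
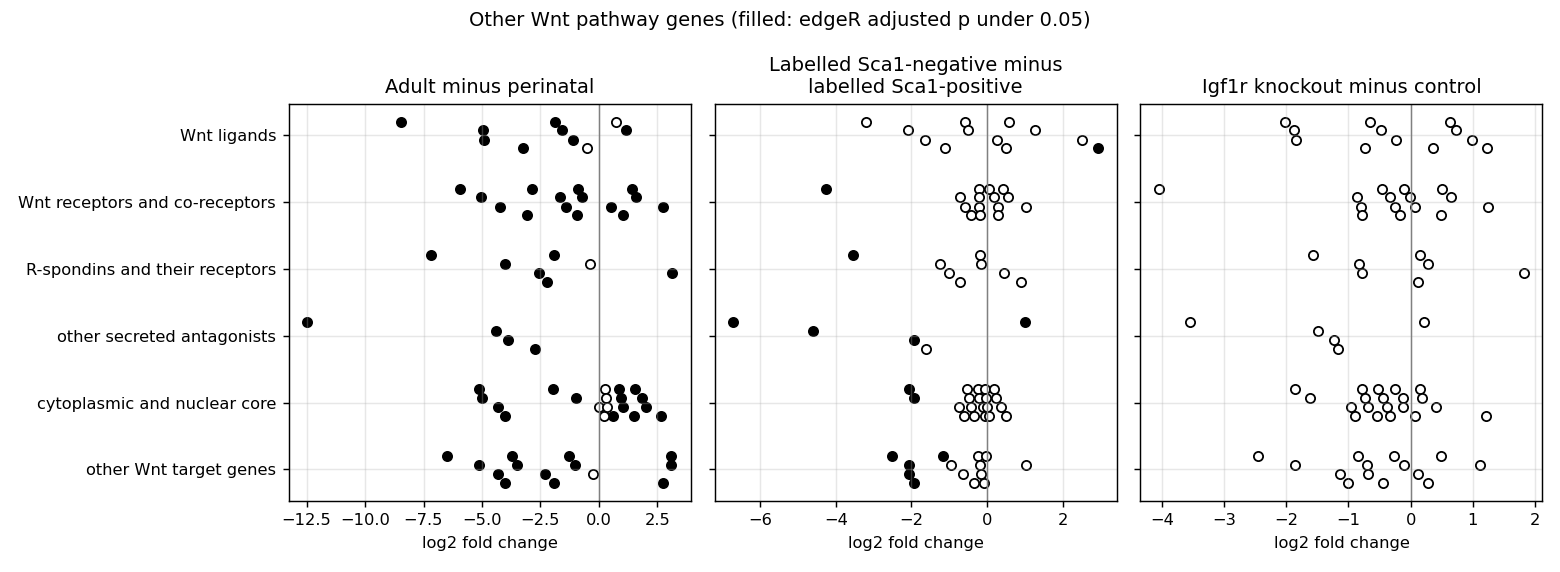
Log2 fold change of the tested genes of 6 Wnt pathway lists in the 3 comparisons, filled where the edgeR adjusted p was under 0.05, with vertical offsets within a list only to keep points apart. All 4 tested other secreted antagonists lie below 0 in the age panel, where the leftmost, Sostdc1, was at 0 in all adult libraries, so that its fitted value is no measure of size, and no point is filled in the knockout panel.

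In the Sca1 comparison 12 of 70 tested pathway genes were called, 10 lower and 2 higher in the libraries labelled Sca1-negative. Their list had a median log2 fold change of -0.22. Over all genes tested there, 4.41% were called, 2.79% lower and 1.63% higher. The called pathway genes included other antagonists. Dkk1, which blocks Lrp5 and Lrp6, had a log2 fold change of -4.60 (adjusted p = 0.0142), Sfrp5 had -6.73 (adjusted p = 0.00169) and Sostdc1 had -1.94 (adjusted p = 0.00956). Under the Sca1-negative label, Dkk1 ran from 0.066 to 0.217 CPM and Sfrp5 from 0.072 to 0.131 CPM. That is no more than 3 counts were worth (0.197 and 0.217 CPM), so the fold sizes of Dkk1 and Sfrp5 are uncertain. Of 14 other Wnt target genes, 5 were lower and none higher. The nuclear partners of beta-catenin Lef1 (-2.06) and Tcf7 (-1.94) and the receptor Tnfrsf19 (-2.52) were among these. The ligand Wnt2 was higher (2.94, adjusted p = 0.0176), as was Sfrp4 (0.998, adjusted p = 0.0371), named after its value was seen, and the receptor Fzd9 was lower (-4.26, adjusted p = 0.00186). In the knockout comparison none of 69 tested pathway genes was called by edgeR, and their median log2 fold change was -0.38. Of these, 22 had an unadjusted p under 0.05, and DESeq2 called 6 lower and 4 higher. Over all genes, the shares were 21.8% with an unadjusted p under 0.05 and 6.97% called by DESeq2.

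Likeness was measured in the knockout table as Pearson's r of log2(CPM + 1) over 6 libraries, for the 7 members with a mean of at least 10 CPM, among 8579 genes at that mean. These values describe the libraries, which share controls 2 and 3 at one end. The genes named are those with the highest r among 8579 over only 6 libraries, and no background for r was computed. Nkd2 was most like Srpx (r = 0.9998), then Ifitm5 (0.9963), a gene of bone-forming cells, and Dkk3 (0.9961). Dkk3 was most like Fmod (0.9991), a collagen-binding proteoglycan, and Nkd1 most like Cpxm1 (0.999). Wif1 was most like Sele (0.996), and Dkk2 most like Kank2 (0.9975) and the growth factor Fgf18 (0.9942). For Sfrp1 the nearest gene was Tgfbrap1 (0.9513), and for Sfrp2 it was Rbm10 (0.9893).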

How the data were processed

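Polyadenylated RNA of sorted mouse bone marrow cells was sequenced in 11 samples. Per the submitters' processing notes, the authors used Trimmomatic 0.32, the genome build mm10 and DESeq2. The aligner, counter, annotation and strand setting were not given in the sources used here. For 1 comparison each, the authors deposited 3 tables with counts per gene, TPM, log2 fold changes and adjusted p-values. The deposited TPM of the knockout table is on a log scale and was not used. Counts were taken as deposited, expressed as CPM of each library's total and tested within each table with edgeR 4.0.16 in R 4.3.3 (filterByExpr, TMM scaling, robust quasi-likelihood fit, Benjamini-Hochberg adjustment over all genes tested, calls under 0.05). All adjusted p-values are from that fit unless DESeq2 1.42.0, run as an alternative, or the authors' deposited table is named. Group means are of CPM without scaling factors, and log2 fold changes carry TMM scaling. The scaling factor choice moved the median of all genes in the age comparison from -0.06 to 0.209 with library totals only. The edgeR code was tested on simulated data.

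Members and lists were chosen with earlier results of these data known. Named genes were all 10 members, up to 3 called genes of each pathway list by adjusted p, label checks and the 3 genes most like each member. Col1a1 was named for its abundance in its marker list. Axin2, Nkd1, Nkd2, Notum and Sfrp2 overlap other annotated genes. For Axin2, Nkd2, Notum and Sfrp2 these lie on the opposite strand, and reads cannot be told apart without the strand setting. The gene that overlaps Nkd1 lies on the same strand, so a strand setting would not separate their reads. Replicate numbers are not stated to mark a shared animal or day, so no replicate block was used in the main fit. Same-numbered samples had deviations correlated below 0 only in the age comparison, for numbers 1 and 2. Alternatives were DESeq2, other scaling, no filter, the replicate block and leaving out each library, and library totals only were added after seeing the data.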

Additional observations from a re-analysis of the deposited data

How the results depend on the processing

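Over the alternatives run, the number of members called stayed at 7 to 9 in the age comparison, beside 8. Of all genes, 69.5% to 81.4% were called there, beside 77.1%. In the Sca1 comparison it was 5 and ran from 4 to 8 when 1 library was left out. Of all genes, 4.41% were called in the Sca1 comparison with all libraries, and DESeq2 called 7 members and 7.06% of all genes there. Leaving out 1 library there leaves 1 in a group, so the range of member counts from those fits is not weighed. Counts over all genes also moved in those fits, as given below. In the knockout comparison 0 members and 0.0368% of all genes were called, and 3 members and 6.97% with DESeq2. When 1 library was left out there, 0 to 3 members were called. These were 2 members and 21.5% of all genes without knockout 1, and 3 members and 2.19% without control 1. With the replicate block, 8, 7 and 0 members were called in the age, Sca1 and knockout comparisons, as were 74.9%, 10.1% and 0% of all genes. Frzb (adjusted p = 0.00346) and Dkk3 (0.048) were added in the Sca1 comparison. Replicate numbers gave correlations of -0.019, -0.0172 and 0.185 between same-numbered deviations for the age comparison. For the knockout comparison they were 0.187, 0.118 and 0.0543, and knockout 3 correlated best with control 2 (0.193). For the Sca1 comparison the value was 0.303, and -0.303 across numbers. With 2 libraries a group, these are equal and opposite by construction. Signs turned with replicate 1 as the only perinatal library for Nkd2 (0.364) and Dkk3 (0.396) in the age comparison, and with control 1 only for Notum (0.094), Frzb (0.325), Dkk2 (-0.078) and Sfrp1 (-0.017) in the knockout comparison. Leaving out single libraries moved the knockout log2 fold change of Sfrp1 between -0.036 and 0.327, with -0.005 without control 2. Counts over all genes moved more. In the Sca1 comparison 220 higher and 377 lower genes became 419 and 588 with DESeq2 and 577 and 792 with the replicate block, and ranged over 143 to 2268 higher and 317 to 2567 lower when 1 library was left out. In the knockout comparison 0 higher and 5 lower became 472 and 527 with DESeq2 and 0 and 0 with the block, and ranged over 0 to 1532 and 0 to 1471 when 1 library was left out. The cause was not tested. Where a group kept a single library, it was assumed to vary like the other group. With 2 or 3 libraries a group, a p that misses the threshold does not show equal levels, and Notum in adult cells was at the limit of the depth.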

Other observations

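The library given as replicate 1 of the perinatal Sca1-positive group was not the same in the age and knockout tables, and the labels name both columns for 1 sample. Only 1.72% of genes had equal counts in both, against at least 97.9% for replicates 2 and 3. Its members can be set side by side as values. Dkk2 had 141 CPM in the age table and 105.1 CPM in the knockout table, both above the 48.9 to 49.3 CPM of replicates 2 and 3. Wif1 had 27.7 and 31.4 CPM, Nkd2 had 13.4 and 16.7 CPM, and Notum had 3.78 and 1.87 CPM, all below replicates 2 and 3. Nkd1 had 14.2 and 30.9 CPM and Sfrp2 had 137 and 179 CPM. For these 6 genes, both libraries thus lay on the same side of replicates 2 and 3. Axin2 (4.45 and 5.23 CPM), Frzb (5.06 and 4.19 CPM) and Dkk3 (192 and 222 CPM) were also below replicates 2 and 3 in both. Sfrp1 was not on one side: its 59.4 and 61.01 CPM lay between replicates 2 and 3. The share of all genes with such a separation was not counted, so these values have no background to be judged by.

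The members' summed CPM was 312 to 536 in the adult libraries, 598 and 658 in these 2 libraries, and 1175 and 1273 in perinatal replicates 2 and 3. In the libraries labelled Sca1-negative it was 571 and 670, and in the knockouts it was 660, 524 and 519.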
